A study of Mus musculus with 4 samples.

Results

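Myosins are the motor proteins that pull on actin filaments, and their transcripts were examined here in an immunoprecipitation of the RNA-binding protein CUGBP1 from mouse myoblasts. The members are the myosin heavy chains, the myosin light chains, the myosin light chain kinases and the unconventional myosins, chosen by gene symbol alone (Myh, Myl, Mylk or Myo followed by a number, with a closing letter required for Myo). The rule found 48 genes, measured by 81 probe sets, among the 19452 genes that have a probe set naming exactly 1 gene. A probe set is a group of array oligonucleotides summarised into 1 value. By the textbook role of their proteins, 19 genes were placed in a muscle class and 27 in a non-muscle class, and *Myl10* and *Mylk4* were left in neither. All unconventional myosins were counted as non-muscle, including *Myo18b*, which is required in striated muscle.

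A conventional, or class II, myosin is built from a pair of heavy chains, which carry the motor and the coiled-coil tail, and from essential and regulatory light chains that wrap the neck of each head. Striated muscle uses a family of sarcomeric heavy chains that replace each other during development and between fibre types, while every cell uses non-muscle class II myosin for adhesion, migration and cytokinesis, with its activity set by phosphorylation of the regulatory light chain. The unconventional myosins do not form thick filaments and serve in transport, membrane tension and signalling. CUGBP1, the product of *Celf1*, binds GU-rich RNA, regulates splicing and recruits deadenylases, and it is studied in muscle because of its altered activity in myotonic dystrophy.

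The cells were C2C12 (LKO1), a mouse myoblast line that carries an empty lentiviral vector under puromycin selection, and they were harvested while proliferating, before confluency. Cytoplasmic lysate was incubated either with the anti-CUGBP1 monoclonal antibody 3B1 (CUGBP1 IP) or with normal IgG (control IgG), so both groups share line, vector and growth state. RNA from each immunoprecipitate was hybridized to its own Affymetrix Mouse Gene 1.0 ST array, with 2 arrays in each group and 4 arrays in all. Arrays of input RNA were not analysed here, so abundance in the cell and recovery by the antibody cannot be told apart in any single value. Whether the replicates are separate cultures is not stated in the sources used here, and the p-values therefore measure only a spread between arrays that may be technical.

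Values are linear intensities divided by the 5th percentile of the same array, so a transcript that is not detected reads about 1. Background was read from 1200 probe sets for olfactory or vomeronasal receptors, whose 95th percentile was 1.23 and 1.29 with anti-CUGBP1 and 1.09 and 1.16 with IgG. A value at or below that limit on its own array is called background. The bright end of the arrays was not equal. The 95th percentile of all probe sets was 9.37 and 13 in the CUGBP1 IP, against 2.36 and 5.96 with IgG. The median log2 difference (CUGBP1 IP minus control IgG) over the 21044 probe sets tested was 0.29, and a difference given below as relative has this median subtracted. Of the myoblast markers, 6 of 7 were above background on all 4 arrays. Of 6 markers of differentiated muscle, *Acta1* was the only such gene, but all 6 were above background on both CUGBP1 IP arrays. The summed level of those 6 markers, each about 1 when not detected, was 11.1 and 11.2 in the CUGBP1 IP, against 6.72 and 8.44 with IgG. The 7 myoblast markers summed to 115 and 158 in the CUGBP1 IP, against 42.0 and 114 with IgG. Of the markers of other cell types, 0 of 4 leukocyte and 0 of 4 endothelial genes were above background on all 4 arrays, with 1 of 4 epithelial (*Krt19*) and 1 of 4 neuronal genes (*Tubb3*).

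No myosin transcript was called different between CUGBP1 IP and control IgG. By limma, 0 of 48 genes were higher and 0 were lower at an adjusted p of 0.05, where 1.95% of all probe sets were called higher and 0.138% lower. Before adjustment, 5 of 48 genes had a p under 0.05, all with the higher mean in the CUGBP1 IP, against 29.1% of all probe sets in either direction. The lowest adjusted p among the genes was 0.155, for *Myh2*. The signal-to-negative ratio divides the average of the CUGBP1 IP pair by that of the IgG pair. By this measure, 0 of 48 genes lay in the top 5% of all probe sets when each gene was represented by the probe set with its highest mean. Both CUGBP1 IP arrays read above both control IgG arrays for 37 of 48 genes (77.1%), beside 66.3% of all probe sets, and no gene had both below. The log2 difference was above 0 for 45 of 48 genes as deposited, beside 19775 of the 21044 probe sets tested. It was above 0 for 19 of 48 genes after the arrays were scaled to their medians, a step that moves all genes alike. Relative to the median of all probe sets it was above 0 for 18 of 48 genes in both cases.

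**Figure D1:**
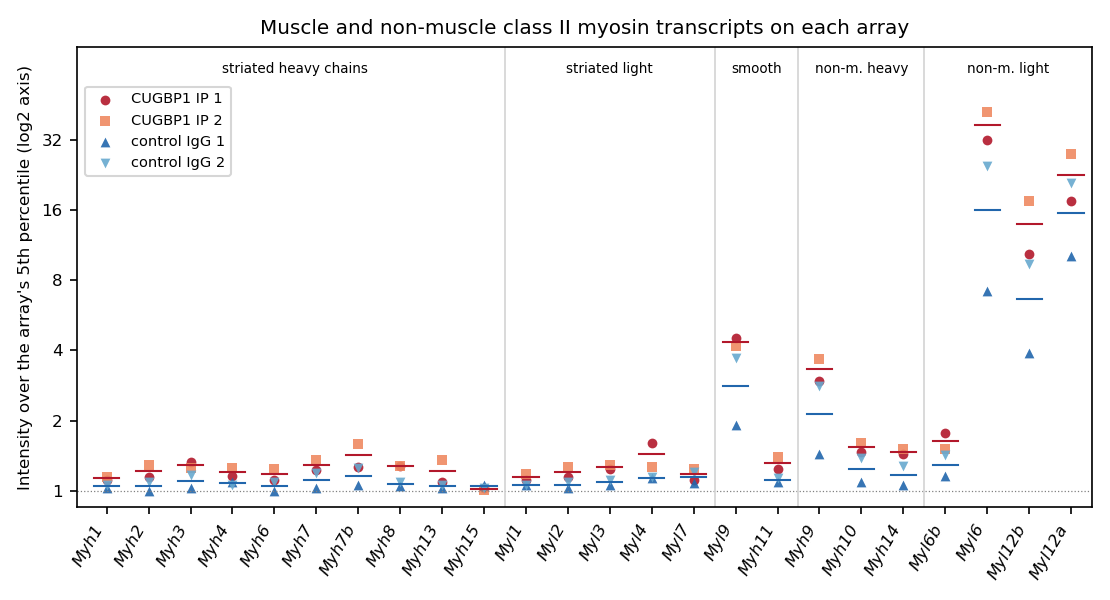
Intensity on a log2 axis, over the 5th percentile of its array, for each class II heavy and light chain gene on the 4 arrays, with a line at each group mean; the dotted line marks 1. The striated heavy and light chains all lie between 1.00 and 1.60, while *Myl6*, *Myl12b* and *Myl12a* lie between 3.88 and 42.1 with the second control IgG array well above the first.

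The sarcomeric heavy chains were at or near background. Over the 10 genes the values ran from 1.00 to 1.59, none was above background on all 4 arrays, and *Myh1* (fast IIx), *Myh2* (fast IIa), *Myh4* (fast IIb), *Myh6* (cardiac alpha) and *Myh15* were at background on every array. *Myh7b*, a slow-tonic heavy chain, read 1.26 and 1.59 in the CUGBP1 IP, against 1.06 and 1.25 with IgG. *Myh8*, the perinatal chain, read 1.27 and 1.28 against 1.05 and 1.09 (adjusted p = 0.167 by limma), with both controls and the second CUGBP1 IP value at background. *Myh3*, the embryonic chain, read 1.33 and 1.25 against 1.03 and 1.17. The groups did not overlap for any of these 3 chains, beside 66.3% of all probe sets with both CUGBP1 IP arrays above both controls.

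*Myh7*, the slow and cardiac beta chain, read 1.23 and 1.35 in the CUGBP1 IP, against 1.03 and 1.19 with IgG. *Myh13*, the extraocular chain, read 1.09 and 1.35 against 1.03 and 1.06 (adjusted p = 0.156 by limma), and only its second CUGBP1 IP value was above background. *Myh2* read 1.14 and 1.29 against 1.00 and 1.09. *Myh3*, *Myh2*, *Myh1*, *Myh4*, *Myh8* and *Myh13* follow one another in the RefSeq order of protein-coding genes, as do *Myh6* and *Myh7*. These neighbours encode closely related proteins, and hybridization of one transcript to the probe set of another was not tested.

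The striated light chains were also at or near background. The 5 genes of the naming rule ran from 1.03 to 1.60, none was above background on all 4 arrays, and *Myl1* (fast essential) and *Myl2* (ventricular and slow regulatory) were at background on every array. *Myl4*, the atrial and embryonic essential chain, read 1.60 and 1.26 in the CUGBP1 IP, against 1.13 and 1.14 with IgG, and the first CUGBP1 IP array stood apart from the other 3. *Myl3*, the ventricular and slow essential chain, read 1.24 and 1.29 against 1.06 and 1.11 (adjusted p = 0.204 by limma), and only its first CUGBP1 IP value was above background. *Myl7*, the atrial regulatory chain, read 1.11 and 1.24 against 1.08 and 1.20, and its groups overlapped. *Myl2* read 1.14 and 1.26 against 1.03 and 1.09. *Mylpf*, the fast regulatory light chain, has no number in its symbol and so falls outside the naming rule; it was above background on all 4 arrays, at 1.63 and 1.32 against 1.25 and 1.31.

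Of the smooth muscle chains, *Myl9* was clearly above background on every array. This regulatory light chain, which smooth muscle shares with cultured non-muscle cells, read 4.54 and 4.18 in the CUGBP1 IP, against 1.91 and 3.69 with IgG. Both CUGBP1 IP values were above both control values, but the control arrays differed from each other by 1.93-fold while the ratio of the group means was 1.56. The log2 difference was 0.71 (SE 0.71, 95% interval -0.67 to 2.10, adjusted p = 0.403 by limma), and its relative value turned from 0.43 to -0.55 with quantile normalization. *Myh11*, the smooth muscle heavy chain, read 1.24 and 1.40 against 1.09 and 1.13 (adjusted p = 0.217 by limma), with both controls at background.

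The kinases that phosphorylate the regulatory light chain were dim. *Mylk*, the kinase of smooth muscle and non-muscle cells, read 1.29 and 1.44 in the CUGBP1 IP and 1.09 on both control IgG arrays. The controls were at background, and the adjusted p was 0.158 by limma. *Mylk3*, the cardiac kinase, read 1.30 and 1.37 against 1.11 and 1.17, a ratio of 1.17. *Mylk2*, the skeletal muscle kinase, read 1.09 and 1.35 against 1.09 and 1.16, with 1 value tied between the groups. *Myl10* read 1.23 and 1.29 against 1.06 and 1.19, and *Mylk4* was at background on every array.

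The non-muscle light chains were above background on all 4 arrays, in 4 of 4 genes. *Myl6*, the essential light chain of non-muscle and smooth muscle myosin, read 31.9 and 42.1 in the CUGBP1 IP, against 7.20 and 24.7 with IgG. The groups did not overlap, and the ratio of the means was 2.32. The second control array was 3.43-fold above the first, so the mean of the CUGBP1 IP was 5.14-fold above the first control and 1.501-fold above the second. The log2 difference was 1.46 (SE 1.32, 95% interval -1.12 to 4.04, adjusted p = 0.364 by limma). After quantile normalization, which gives all arrays the same distribution, the relative log2 difference of *Myl6* was 0.01.

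*Myl12b*, a regulatory light chain of non-muscle myosin, read 10.3 and 17.5 in the CUGBP1 IP, against 3.88 and 9.41 with IgG. The groups did not overlap and the ratio was 2.09, with a log2 difference of 1.15 (SE 1.26, adjusted p = 0.444 by limma). Without control IgG replicate 2 the ratio was 3.58, and without control IgG replicate 1 it was 1.48. The second control array was 2.43-fold above the first. *Myl12a*, its close relative and neighbour in the genome, read 17.5 and 27.8 against 10.1 and 20.8. Here the second control array read above the first CUGBP1 IP array, the ratio was 1.46 and the adjusted p was 0.702 by limma. The relative log2 difference was 0.86 for *Myl12b* and 0.31 for *Myl12a* as deposited, and it was -0.54 and -0.94 after quantile normalization, so the sign depended on the scaling. *Myl6b*, the essential light chain encoded next to *Myl6*, read 1.77 and 1.51 against 1.16 and 1.42, a ratio of 1.27, and its relative log2 difference turned from 0.06 to -0.13 with quantile normalization.

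Of the non-muscle heavy chains, *Myh9* was above background on all 4 arrays. This chain of myosin IIA read 2.94 and 3.68 in the CUGBP1 IP, against 1.44 and 2.81 with IgG. The ratio was 1.56, the mean of the CUGBP1 IP being 2.30-fold above the first control array and 1.18-fold above the second. The log2 difference was 0.71 (SE 0.53, 95% interval -0.34 to 1.75, adjusted p = 0.292 by limma). *Myh10*, the chain of myosin IIB, read 1.47 and 1.60 against 1.09 and 1.38, a ratio of 1.24. *Myh14*, the chain of myosin IIC, read 1.43 and 1.51 against 1.06 and 1.27, a ratio of 1.26. None of the 3 heavy chains had overlapping groups, beside 66.3% of all probe sets with both CUGBP1 IP arrays above both controls. The relative difference of *Myh9* was 0.42 as deposited and -0.33 after quantile normalization.

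**Figure D2:**
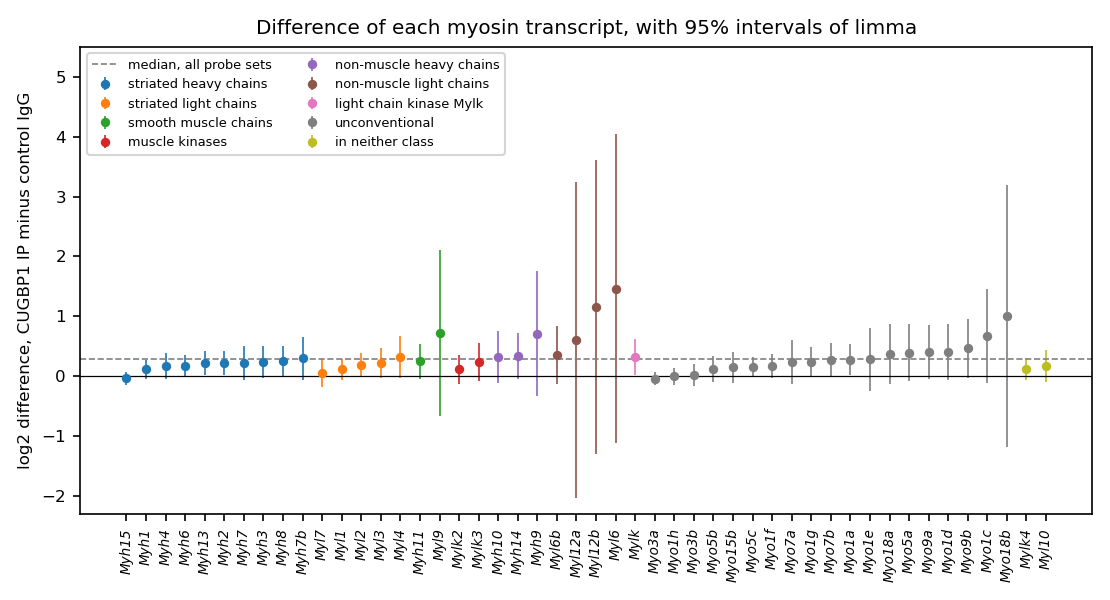
Log2 difference (CUGBP1 IP minus control IgG) of all 48 genes, grouped by class, with the 95% intervals of limma; the dashed line is the median of all probe sets tested, 0.29. The intervals widen from the dim striated chains to *Myl12a*, *Myl12b*, *Myl6* and *Myo18b*, since limma's error followed intensity.

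Muscle and non-muscle members were compared by their counts and medians. The 19 muscle genes had a median log2 difference of 0.22, which is -0.07 relative to all probe sets, with ratios from 0.976 to 1.56. The highest ratio was that of *Myl9*, while the 15 striated genes reached 1.26. *Myl9* was placed with muscle, but *Myl6* and *Mylk*, also shared by smooth muscle and non-muscle cells, were placed with non-muscle. The 27 non-muscle genes had a median of 0.32, which is 0.03 relative to all probe sets, with ratios from 0.971 to 2.32. The CUGBP1 IP pair lay wholly above the control pair for 16 of 19 muscle genes (84.2%) and 20 of 27 non-muscle genes (74.1%), beside 66.3% of all probe sets, and no test of the difference between the classes was made. After quantile normalization the order turned, with relative medians of 0.02 for muscle and -0.05 for non-muscle members.

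Above background on all 4 arrays were 2 of 19 muscle genes (*Myl9* and *Mylk3*) and 11 of 27 non-muscle genes, with *Myo18b* counted among the latter. Over these 13 genes the median ratio was 1.46, while it was 1.61 over the 7727 probe sets of all genes that met the same condition. The gap between the 2 control IgG arrays, on the log2 scale, exceeded the difference between the groups for 8 of these 13 genes (61.5%) and for 2641 of those 7727 probe sets (34.2%). A condition on all 4 arrays selects transcripts that were also recovered with IgG.

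The 19 unconventional myosin genes had ratios from 0.971 to 1.90 and a median log2 difference of 0.27, which is -0.02 relative to all probe sets. *Myo1f*, *Myo1h*, *Myo3a*, *Myo3b*, *Myo5b* and *Myo5c* were at background on every array. *Myo1c*, which links membranes to actin and takes part in glucose transporter traffic, read 2.11 and 3.13 in the CUGBP1 IP, against 1.27 and 2.06 with IgG, a ratio of 1.57 (log2 difference 0.67, SE 0.40, adjusted p = 0.216 by limma). *Myo9b*, a class IX myosin, read 1.53 and 1.96 against 1.09 and 1.45, a ratio of 1.37. Neither gene had overlapping groups, beside 66.3% of all probe sets with both CUGBP1 IP arrays above both controls. The relative difference of *Myo1c* turned from 0.38 to -0.16 with quantile normalization.

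*Myo9a*, the other class IX myosin, read 1.40 and 1.85 in the CUGBP1 IP and 1.22 on both control IgG arrays. *Myo18a*, a Golgi-associated myosin, read 1.51 and 1.85 against 1.19 and 1.41. *Myo1d*, a membrane-associated class I myosin, read 1.46 and 1.84 against 1.05 and 1.47. The second control value lay above the first CUGBP1 IP value for *Myo1d*. The groups of the other 2 did not overlap, beside 66.3% of all probe sets with both CUGBP1 IP arrays above both controls. With quantile normalization the relative difference turned from 0.11 to -0.16 for *Myo9a* and from 0.079 to -0.18 for *Myo18a*. *Myo5a*, the melanosome and vesicle carrier, read 1.53 and 1.78 against 1.09 and 1.45, and *Myo1e*, which acts in endocytosis, read 1.54 and 1.82 against 1.13 and 1.69.

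*Myo18b*, a myosin required in striated muscle although it was listed here with the unconventional class, was above background on all 4 arrays. It read 7.77 and 11.2 in the CUGBP1 IP, against 3.22 and 6.81 with IgG, with no overlap and a ratio of 1.90. The ratio was 2.95 without control IgG replicate 2 and 1.40 without control IgG replicate 1, the second control being 2.11-fold above the first. The log2 difference was 1.00 (SE 1.12, adjusted p = 0.455 by limma), and its relative value turned from 0.71 to -0.60 with quantile normalization. The gene has 17 probe sets, and these differed among themselves. A second one read 2.54 and 4.32 against 1.28 and 1.94, a ratio of 2.13 with an adjusted p of 0.136 by limma. The other 15 ran from 1.00 to 1.57 on all arrays, with ratios from 1.05 to 1.24. Which part of the transcript each probe set covers was not analysed here.

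Probe sets of the same gene were closer for *Myl6*. Its 6 probe sets read 24.0 to 31.9 and 35.7 to 42.1 in the CUGBP1 IP, against 5.20 to 7.20 and 19.8 to 24.7 with IgG. Their ratios ran from 2.32 to 2.63 and their adjusted p-values from 0.321 to 0.364 by limma. The 95th percentile of the ratio over all probe sets was 2.57, so the gene sat across it. Probe sets with ratios of 2.59 and 2.63 were inside the top 5%, and those with 2.55 and 2.52 were just outside. In all, 2 of 81 member probe sets were in the top 5%, both of *Myl6*, and whether these 6 probe sets bind copies of the same transcript or related sequence was not tested.

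*Myo9a* was measured by 12 probe sets, 9 of them at background on every array, with ratios from 0.944 to 1.33. The lowest adjusted p of any member probe set, 0.0550 by limma, belonged to one of these 9, and it was on the low side, at 0.91 and 0.93 in the CUGBP1 IP, against 1.00 and 0.95 with IgG. These values lie at or under the floor of the arrays, and the log2 difference was -0.08. That probe set passed the threshold when arrays were scaled to the receptor probe sets and when an offset of 1 was added. Over all 81 probe sets, 11 (13.6%) had an unadjusted p under 0.05, beside 29.1% of all probe sets, and 62 (76.5%) had both CUGBP1 IP values above both control values, beside 66.3%.

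**Figure D3:**
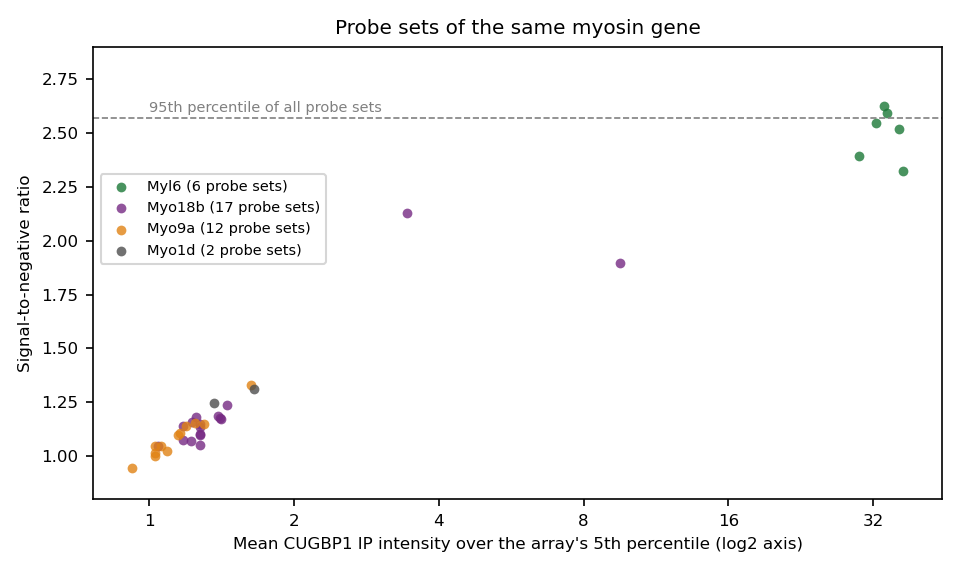
Signal-to-negative ratio against the mean CUGBP1 IP intensity (log2 axis) for each probe set of the 4 member genes that have more than 1; the dashed line is the 95th percentile of all probe sets, 2.57. The 6 probe sets of *Myl6* lie together across the line, while 15 of the 17 of *Myo18b* lie near 1 and 2 stand apart.

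The genes that act on or with myosin were read from the same fit. The list held 41 names, with chaperones, thick filament proteins, phosphatase subunits, upstream kinases and light chains shared with other complexes, and 36 of them were measured. By limma 0 were called higher and 0 lower, and 9 of 36 had an unadjusted p under 0.05, beside 29.1% of all probe sets. Of the 36, 5 were in the top 5% of the ratio, and for 27 (75%) both CUGBP1 IP arrays were above both controls, beside 66.3% of all probe sets. The median log2 difference was 0.36, and 0.29 over all probe sets.

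The largest ratio of the list belonged to a subunit of myosin phosphatase, the enzyme that removes the phosphate from the regulatory light chain. *Ppp1cb*, its catalytic subunit, read 29.2 and 38.2 in the CUGBP1 IP, against 3.23 and 6.09 with IgG. The ratio was 7.23, and the mean of the CUGBP1 IP was 10.4-fold above the first control array and 5.53-fold above the second. The log2 difference was 2.91 (SE 1.34, 95% interval 0.29 to 5.53, adjusted p = 0.149 by limma). *Ppp1r12a*, the targeting subunit that binds myosin, read 4.29 and 3.38 against 1.34 and 1.56, a ratio of 2.64. Its log2 difference was 1.40 (SE 0.48, adjusted p = 0.0781 by limma), and it was called higher when arrays were scaled to their medians and with an offset of 1. The related subunits *Ppp1r12b* and *Ppp1r12c* had ratios of 1.43 and 1.46. The other probe sets of *Ppp1r12b* had ratios from 1.03 to 1.34.

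Light chains that myosin V shares with other complexes were also in the top 5%. *Dynll2*, the light chain of myosin V and dynein, read 10.2 and 8.12 in the CUGBP1 IP, against 1.72 and 3.09 with IgG, a ratio of 3.81 (adjusted p = 0.147 by limma). *Dynll1*, its relative in dynein, read 28.0 and 47.4 against 4.25 and 24.1, a ratio of 2.66 (adjusted p = 0.278 by limma). *Calm2*, which encodes calmodulin, the light chain of most unconventional myosins and the activator of the light chain kinases, read 39.0 and 47.4 against 8.53 and 25.0, a ratio of 2.57 (adjusted p = 0.328 by limma). A second probe set of *Calm2*, at 42.6 and 40.5 against 8.02 and 27.8, had a ratio of 2.32, outside the top 5%, so the gene lay across that limit. *Calm3*, another calmodulin gene of the list, had a ratio of 2.00, also outside the top 5%, with the second control 3.24-fold above the first. The groups did not overlap for any of them, beside 66.3% of all probe sets with both CUGBP1 IP arrays above both controls. However, the second control array was 5.66-fold above the first for *Dynll1* and 2.93-fold for *Calm2*. *S100a4*, a calcium-binding protein that attaches to the tail of myosin IIA, read 19.6 and 31.4 against 7.75 and 25.5, and its groups overlapped.

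Of the upstream kinases, *Cit*, the citron kinase of cytokinesis, read 1.83 and 2.56 in the CUGBP1 IP, against 1.06 and 1.34 with IgG. Its ratio was 1.83, and its adjusted p, 0.0724 by limma, was the lowest of the list. *Cit* was called higher when arrays were scaled to their medians. The other kinases of the list, *Cdc42bpa*, *Cdc42bpb*, *Dapk3* and *Rock1*, had lower ratios, of 1.43, 1.31, 1.28 and 1.16. The groups of *Rock1* overlapped.

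A chosen list of further myosins and *Mylip*, which the naming rule leaves out, was also read. Of these, 7 were measured and none was called by limma. The list does not hold every gene whose symbol starts with Myl or Myo. *Myo10*, the filopodial myosin, was above background on all 4 arrays, at 2.46 and 2.85 in the CUGBP1 IP against 1.28 and 1.66 with IgG, a ratio of 1.81 (adjusted p = 0.141 by limma). *Myo19*, a mitochondrial myosin, had a ratio of 1.27, and *Myo6*, *Myo15* and *Myo16* were at background on every array. *Mylip*, an E3 ubiquitin ligase named for its binding to the myosin regulatory light chain and not itself a myosin, read 4.29 and 5.68 against 1.19 and 1.72, a ratio of 3.43 (adjusted p = 0.0533 by limma). *Mylpf* is given above.

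**Figure D4:**
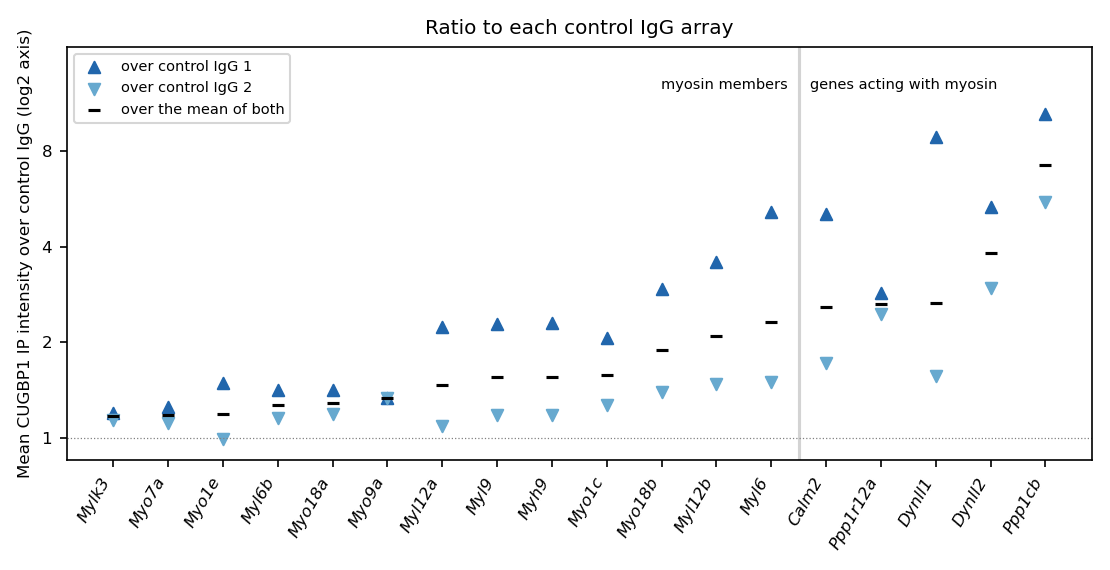
Mean CUGBP1 IP intensity over the first, the second and the mean of the control IgG arrays (log2 axis), for the 13 myosin genes above background on all 4 arrays and the 5 genes acting with myosin in the top 5% of the ratio. For *Myl6* the ratio runs from 1.501 to 5.14 with the control chosen, whereas for *Ppp1cb* it is 5.53 or more against either.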

How the data were processed

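RNA from CUGBP1 and control IgG immunoprecipitates of C2C12 (LKO1) cells was measured on Affymetrix Mouse Gene 1.0 ST arrays, 2 per group, grouped and numbered by sample title. The deposited values are linear intensities that the authors divided by each array's 5th percentile; the summarisation program and background correction are not given in the sources used. That step aligns the floor of the arrays and not their bright end. It multiplies all values of an array by the same factor and subtracts nothing. Of 25175 probe sets, 21044 named exactly 1 gene, 1492 several and 2639 none. Symbols of 20959 were matched by gene identifier to a RefSeq table of GRCm38.p6, used for names and gene order only. No myosin probe set named several genes.

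Log2 values were fitted with limma 3.58.1 in R 4.3.3 (lmFit, eBayes with an intensity trend, two-sided, Benjamini-Hochberg over all 21044 probe sets, threshold 0.05), and 0 probe sets were called without the trend. The fit was also run on simulated data with noise drawn independently for each array. Arrays of the same number deviated together in the real data, so that run does not measure the error rate here. No fold is given for a single gene where both control values were background. Genes with several probe sets are represented by the one with the highest mean. Members named with values were, in each class, the 4 with the highest ratio and the 4 with the highest CUGBP1 IP mean, those in the top 5%, and genes whose probe sets differed by over 1.5 times in ratio; members at background on all arrays were named only. *Myh2*, *Myo1d*, *Myo5a* and *Myo1e* were given values after these had been seen, as were *Cit* and the other upstream kinases. The same holds for *Ppp1r12b*, *Ppp1r12c*, *Calm3* and the genes outside the naming rule. The members and lists were chosen with earlier results of these data known, and *Myo15b* was added to its class after the annotation was read. Scaling, offset, filter, trend, replicate block, left-out arrays and the choice of probe set or ratio were varied. The precision is limited by having only 2 arrays per group.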

Additional observations from a re-analysis of the deposited data

How the results depend on the processing

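Values here are log2 differences relative to the median of all probe sets in the same fit, since the scaling moved that median from 0.29 as deposited to 0.015 after median scaling, -0.016 after quantile normalization and 0.27 after receptor scaling. No member gene was called in either direction under any alternative except the replicate block, in which the replicate number was a term of the fit. In that fit, 26 of 48 member genes and 20 of 36 genes acting with myosin were called higher. Of the 21044 probe sets, 11809 were then called higher. Arrays of the same number deviated together (correlation 0.64), but the 2 pairs give a single value by construction and no source says what a number shares, so this fit is given only here. Of genes acting with myosin, 2 of 36 were called higher with median scaling and 1 with an offset of 1, when 1477 and 763 of the 21044 probe sets were called higher. Leaving out any array left 0 calls among all genes, although 1062 to 6085 probe sets then had a p under 0.05 before adjustment. Without the intensity trend limma called 0, and 4757 had such a p. With 1 array left in a group, that array was assumed to vary like the others.

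The top 5% of the ratio held 1 member gene, *Myl6*, with an offset of 1 and with geometric means, 2 member probe sets when every probe set counted, and 0 to 1 genes when an array was left out, the 1 arising without control IgG replicate 2. With quantile normalization, with only probe sets above background on at least 2 arrays, and after the floor was subtracted, the top 5% held 0 member probe sets. The muscle median, -0.073, was 0.020 with quantile normalization, -0.29 when only probe sets above background on at least 2 arrays were fitted and 0.18 over the 2 genes above background on all 4, and it ran from -0.13 to -0.020 when an array was left out. The non-muscle median, 0.033, was -0.049, -0.14 and 0.31 in the same settings, -0.056 over every probe set, 0.31 over class II members alone and -0.012 without the light chains. The last 2 were chosen after seeing the data, as was the muscle median over striated members alone, -0.074. The non-muscle median ran from 0.020 to 0.087 when an array was left out.

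Relative differences of single genes turned sign in 44 instances, in none of which the gene was called. With quantile normalization they became -0.039 for *Myh10*, 0.075 for *Myh13*, 0.078 for *Myh3*, 0.052 for *Myh7*, 0.090 for *Myh8*, -0.33 for *Myh9*, -0.94 for *Myl12a*, -0.54 for *Myl12b*, 0.048 for *Myl2*, 0.041 for *Myl3*, -0.00092 for *Myl4*, -0.13 for *Myl6b*, -0.55 for *Myl9*, 0.050 for *Mylk4*, -0.18 for *Myo18a*, -0.60 for *Myo18b*, -0.16 for *Myo1c*, -0.16 for *Myo9a* and -0.70 for *S100a4*. With the filter they became -0.22 for *Myh10*, -0.20 for *Myh14*, -0.24 for *Myh7b*, -0.22 for *Myl4*, -0.19 for *Myl6b*, -0.22 for *Mylk*, -0.17 for *Myo18a*, -0.14 for *Myo9a* and -0.079 for *Myo9b*. With arrays left out they ran from -0.022 to 0.11 for *Myh10*, -0.11 to 0.048 for *Myh11*, -0.15 to 0.021 for *Myh13*, -0.19 to 0.076 for *Myh3*, -0.071 to 0.089 for *Myh7b*, -0.12 to 0.052 for *Myh8*, -0.090 to 0.74 for *Myl12a*, -0.13 to 0.014 for *Myl3*, -0.23 to 0.29 for *Myl4*, -0.14 to 0.26 for *Myl6b*, -0.062 to 0.15 for *Mylk*, -0.12 to 0.016 for *Mylk3*, -0.0025 to 0.23 for *Myo9a* and -0.21 to 1.30 for *S100a4*. The cause of these changes was not tested, except that the filter raises the median of all probe sets to 0.54. Signals at background limit what can be read for 14 of 48 genes on all 4 arrays and for 21 more on 1 to 3.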
